A study of Mus musculus with 8 samples.

Results

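The genes described here are 10 members of the interleukin-1 (IL-1) family and the NF-κB system, taken by gene symbol from the deposited table of 56748 genes: the cytokine gene Il33, the antagonist gene Il1rn, the receptor genes Il1r1 and Il1rl1, the Rel family subunit genes Nfkb1, Nfkb2, Rel, Rela and Relb, and the inhibitor gene Nfkbia. Each symbol matched 1 row. They were measured in primary cardiac fibroblasts of 1-day-old wild-type C57BL/6J mice, in 4 cultures given transforming growth factor beta 1 (TGF-β1) at 10 ng/mL for 48 h and 4 untreated cultures. TGF-β1 is the cytokine used to drive fibroblasts toward a matrix-producing state, and the cultures came from different litters per the series design. The cells were kept by adherence to plastic and were not sorted, so other heart cells can remain in them.

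IL-1 and its relatives are cytokines that cells release on injury. IL-33, encoded by Il33, is held in the nucleus of barrier and stromal cells and acts as an alarm signal through the receptor ST2, the product of Il1rl1. IL-1α and IL-1β act through IL-1R1, the product of Il1r1, and are blocked by the receptor antagonist encoded by Il1rn. Both receptors pair with the accessory chain encoded by Il1rap and signal through MyD88 and IRAK kinases to NF-κB. NF-κB is a dimer of Rel family subunits. In resting cells IκBα, the product of Nfkbia, keeps it in the cytoplasm, and Nfkbia, Nfkb2, Rel and Relb are themselves known targets of NF-κB, which makes their transcripts common readouts of the pathway.

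Because Nfkbia and several subunit genes are known to be read by NF-κB itself, the 250 bases before their start sites are shown, with those of Rela and Il1r1 for comparison. The sequences are from RefSeq on build GRCm38.p6, whose table held 8 of the 10 members (not Nfkb1 and Relb), some with several start sites. Capitals mark matches to the κB consensus on either strand, and overlapping matches run together.
Nfkbia (chr12:55492648-55492897, minus strand): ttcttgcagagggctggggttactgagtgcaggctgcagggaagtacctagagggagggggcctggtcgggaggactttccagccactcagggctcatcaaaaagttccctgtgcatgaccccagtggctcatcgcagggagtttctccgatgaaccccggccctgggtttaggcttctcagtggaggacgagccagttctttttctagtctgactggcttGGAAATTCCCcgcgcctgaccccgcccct
Nfkb2, first start site (chr19:46304487-46304736, plus strand): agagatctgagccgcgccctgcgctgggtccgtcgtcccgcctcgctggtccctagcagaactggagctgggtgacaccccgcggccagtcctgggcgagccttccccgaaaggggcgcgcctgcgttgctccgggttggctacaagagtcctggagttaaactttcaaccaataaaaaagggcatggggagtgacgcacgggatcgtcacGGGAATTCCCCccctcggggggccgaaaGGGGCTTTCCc
Rel (chr11:23770970-23771219, minus strand): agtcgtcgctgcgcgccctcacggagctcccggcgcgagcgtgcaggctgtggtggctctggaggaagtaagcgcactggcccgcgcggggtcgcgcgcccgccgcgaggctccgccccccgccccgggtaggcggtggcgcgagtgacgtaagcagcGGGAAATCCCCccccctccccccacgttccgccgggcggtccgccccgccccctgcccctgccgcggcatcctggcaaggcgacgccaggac
Rela (chr19:5637291-5637540, plus strand): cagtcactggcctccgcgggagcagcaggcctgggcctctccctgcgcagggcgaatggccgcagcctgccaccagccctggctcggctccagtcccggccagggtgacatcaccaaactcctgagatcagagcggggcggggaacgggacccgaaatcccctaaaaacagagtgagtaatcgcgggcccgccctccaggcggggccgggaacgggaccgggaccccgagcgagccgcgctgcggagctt
Il1r1, second start site (chr1:40266336-40266585, plus strand): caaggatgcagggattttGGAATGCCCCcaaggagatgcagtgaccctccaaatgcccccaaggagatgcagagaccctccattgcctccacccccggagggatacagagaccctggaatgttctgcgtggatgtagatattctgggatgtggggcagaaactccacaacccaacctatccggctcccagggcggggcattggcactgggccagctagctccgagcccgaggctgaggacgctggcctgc

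Of the 8 members in that table, 4 had a match to the κB consensus before at least 1 start site (Nfkbia, Nfkb2, Rel and Il1r1), and Il33, Il1rn, Il1rl1 and Rela had none in the windows searched. Counted by window, 6 of their 15 windows held a match, against 7.25% of all 32851 windows of this length, and several windows of a gene can share bases. Every Nfkb2 window was among the 6. The windows of all genes were not matched for G and C bases. These made up 59.2% to 77.6% of the members' windows with a match and 37.6% to 70.4% of those without. In Nfkbia the consensus lay at bases -29 to -20 from the start site, in Rel between -92 and -82, and in the first promoter of Nfkb2 the nearest match lay at -11 to -2. A match describes letters only and shows no binding.

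Between 14597778 and 17176898 reads were counted on genes in the TGF-β1 libraries and between 14340740 and 16373798 in the untreated libraries. In untreated replicate 1, ribosomal RNA took 0.0332% of counts, against 1.09% to 2.56% in the other 7 libraries. Values without this library are therefore given for the members that were called. The 7 fibroblast markers summed to 16090 to 17670 CPM in TGF-β1 and 12000 to 13490 CPM in untreated libraries. Most of this sum was Col1a1 (mean 10700 CPM in TGF-β1 and 6974 CPM in untreated cultures) and Col1a2 (5000 CPM and 3763 CPM). The lowest of the 7, Lum, stood at 31.9 CPM in TGF-β1 and 68.6 CPM in untreated cultures. Of the 7 markers, Col1a1 and Col1a2 rose and the other 5, Pdgfra, Lum, Tcf21, Dcn and Ddr2, fell (median log2 fold change −0.39). CPM is the read count of a gene over the scaled library total, in the usual unit. Marker genes of other cells were also present. The 8 cardiomyocyte markers summed to 420.9 to 500.7 CPM in TGF-β1 libraries and 780.0 to 850.9 CPM in untreated ones, and all 8 fell. The 6 epicardial and mesothelial markers summed to 747.2 to 775.2 CPM in TGF-β1 libraries and 886.2 to 936.9 CPM in untreated ones, with 2 lower and 1 higher. The 9 macrophage markers summed to 170.1 to 203.4 CPM in TGF-β1 libraries and 193.8 to 231.7 CPM in untreated ones. Most of this sum was Lyz2, at a mean of 149 CPM in TGF-β1 and 168.8 CPM in untreated cultures. Of the 8 macrophage markers tested, 3 fell (Lyz2, Cd14 and Mrc1) and 1 rose (Adgre1). Mrc1 passed the count filter only through the untreated libraries. Mural markers summed to 84.3 to 95.9 CPM in TGF-β1 and 63.2 to 71.7 CPM in untreated libraries, with 2 higher and 1 lower. Of the 2 that were higher, Rgs5 passed the count filter only through the TGF-β1 libraries, and Cspg4 passed it in both groups. Endothelial markers summed to 71.3 to 77.4 CPM in TGF-β1 and 73.3 to 75.8 CPM in untreated libraries, with 2 higher and 1 lower. Mast cell markers summed to 6.42 to 8.64 CPM in TGF-β1 and 8.49 to 12.2 CPM in untreated libraries, nearly all of it Kit, and the defining Fcer1a and Tpsb2 had 0 counts in every library. Lymphoid markers summed to 6.40 to 9.01 CPM in TGF-β1 and 8.89 to 11.1 CPM in untreated libraries, with 1 of the 3 tested, Il7r, lower and the defining Cd3e at 0 throughout. The part of these cells in the results that follow was not tested, and in bulk cultures fewer cells of a type and less RNA per cell cannot be told apart.

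TGF-β1 lowered 5 of the 10 members, namely Il33, Il1r1, Relb, Nfkbia and Nfkb1, and raised none. Log2 fold changes of these 5 ran from −1.58 for Il33 and −1.36 for Il1r1 to −0.20 for Nfkb1. Nfkb2, Rel and Rela did not pass the test, and Il1rn and Il1rl1 had too few counts to enter it. No member was higher at an unadjusted p under 0.05 either. Genes were called with the edgeR quasi-likelihood test at a Benjamini-Hochberg adjusted p under 0.05 over the 13960 genes tested. Of all genes tested, 36.0% were called, 18.5% lower and 17.6% higher. With library totals in place of scaling factors, 6 members were called lower, Nfkb2 being the sixth, and over all genes the split was 1301 higher and 3673 lower, against 2451 higher and 2579 lower with scaling factors. Il33 passed the count filter only through the untreated libraries, and the other 7 tested members passed it in both groups.

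**Figure D1:**
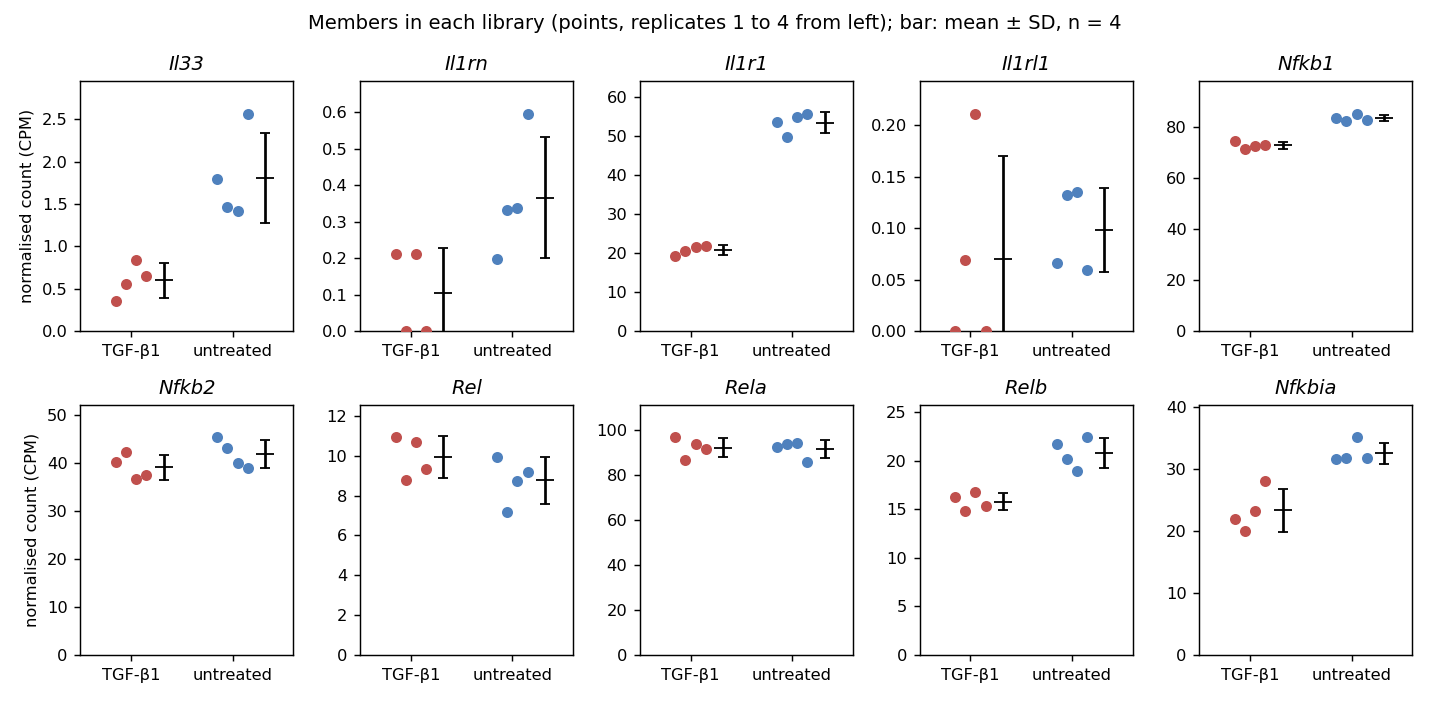
Normalised counts (CPM, linear axes from 0) of the 10 members in each of 4 TGF-β1 and 4 untreated libraries. Points are libraries and the bar is the mean ± SD. The groups are separate for Il33, Il1r1, Nfkb1, Relb and Nfkbia and overlap for the other 5, of which Il1rn and Il1rl1 were not tested. Over all genes tested, the groups are separate in 33.9%, and in 17.4% TGF-β1 is the lower.

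Among the ligands, Il33 was scarce and fell further. Il33 (ENSMUSG00000024810, GRCm39 chromosome 19, 29902514 to 29938118, plus strand) had 5, 8, 12 and 11 reads in TGF-β1 libraries 1 to 4, against 27, 22, 21 and 43 reads in untreated libraries 1 to 4. The highest TGF-β1 library lay below the lowest untreated one. Its level was 0.602 ± 0.205 CPM in TGF-β1 and 1.81 ± 0.532 CPM in untreated cultures (mean ± SD, n = 4 each), and the log2 fold change with its SE was −1.58 ± 0.33 (edgeR adjusted p = 0.000593). TGF-β1 cultures thus held 33.5% of the untreated level, with a wide error from the low counts. Without untreated replicate 1 the log2 fold change of Il33 was −1.59 ± 0.37.

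The genes of IL-1 itself and of the IL-36 subfamily were close to or at 0. Il1a had 2 reads over the TGF-β1 libraries and 4 over the untreated ones, and Il1b had 2 over the TGF-β1 libraries and 1 over the untreated ones. The IL-36 subfamily genes Il36a, Il36b, Il36g and Il36rn, and Il1f10, had no read in any library. Of the 11 ligand and antagonist genes, 3 were tested, and 2 of them, Il33 and Il18, fell. None of the 3 passed the count filter in both groups, since Il33 and Il18bp passed it through the untreated libraries and Il18 through the TGF-β1 libraries, so no median is given. Il18, which encodes a cytokine matured by caspase-1, stood at 0.906 ± 0.058 CPM in TGF-β1 and 1.67 ± 0.745 CPM in untreated cultures (SD, n = 4 each), with −0.88 ± 0.34 as its log2 fold change (edgeR adjusted p = 0.0489). The 2 groups overlapped for Il18, and its call was lost in 11 of 16 alternatives, among them the fits without any one library other than untreated replicate 1. Il18bp, whose product binds IL-18, was not called (−0.72 ± 0.31, edgeR adjusted p = 0.0771), although with library totals all 3 tested genes were called lower.

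The antagonist gene Il1rn (ENSMUSG00000026981, chromosome 2, 24226865 to 24241506, plus strand) had 3, 0, 3 and 0 reads in TGF-β1 libraries 1 to 4 and 3, 5, 5 and 10 reads in untreated libraries 1 to 4. The groups met at 3 reads. Summed over libraries this was 6 reads in TGF-β1 and 23 in untreated cultures, a ratio of 0.27 per scaled read total (95% exact conditional interval 0.09 to 0.683, counting error only). With no count filter the edgeR adjusted p for Il1rn was 0.133 and the log2 fold change −1.77 ± 0.81, so a difference was not called at this depth.

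The receptor gene Il1r1 fell with the smallest p of the 8 members tested. Il1r1 (ENSMUSG00000026072, chromosome 1, 40264240 to 40356417, plus strand) stood at 19.2, 20.6, 21.7 and 21.8 CPM in TGF-β1 libraries 1 to 4, against 53.5, 49.7, 54.8 and 55.8 CPM in untreated libraries 1 to 4. Every TGF-β1 library held less than the lowest untreated one by a gap far wider than the spread within either group. The means were 20.8 ± 1.20 CPM in TGF-β1 and 53.5 ± 2.64 CPM in untreated cultures (SD, n = 4 each), and the fitted log2 fold change was −1.36 ± 0.06 (edgeR adjusted p = 9.16e-14). The treated level was 39% of the untreated one. Only 2.87% of tested genes had a lower log2 fold change than Il1r1. Without untreated replicate 1 the value was −1.37 ± 0.07.

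Il1rl1, which encodes the IL-33 receptor ST2 (ENSMUSG00000026069, chromosome 1, 40468730 to 40504575, plus strand), was at the floor of the assay. It had 0, 1, 3 and 0 reads in TGF-β1 libraries 1 to 4 and 1, 2, 2 and 1 reads in untreated libraries 1 to 4. No library exceeded 3 reads, which is 0.179 to 0.212 CPM at these depths, so no fold is given. Membrane-bound and soluble forms of ST2 come from the same gene and are not separated by counts per gene.

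Il1rap, the shared accessory chain, stood at 74.6 CPM in TGF-β1 and 76.8 CPM in untreated cultures and was not called (log2 fold change −0.04 ± 0.05, edgeR adjusted p = 0.532). The ratio of Il1r1 to Il1rap on the FPKM scale, which corrects for gene length, was 0.464, 0.494, 0.508 and 0.524 in TGF-β1 libraries 1 to 4, against 1.19, 1.22, 1.22 and 1.35 in untreated libraries 1 to 4. On this scale Il1r1 was thus below Il1rap in all treated libraries and above it in all untreated ones. By counts alone Il1r1 was below Il1rap in both groups, at 20.8 CPM in TGF-β1 and 53.5 CPM in untreated cultures. Which of the 2 genes is higher in untreated cultures therefore depends on the annotated lengths, and the fall of the ratio does not. The decoy receptor gene Il1r2 had 9 reads over the TGF-β1 libraries and 15 over the untreated ones and was not tested. Il1rl2, which encodes the IL-36 receptor chain, fell too, with 15.8 ± 0.99 CPM in TGF-β1 and 22.8 ± 2.20 CPM in untreated cultures (SD, n = 4 each; log2 fold change −0.52 ± 0.08, edgeR adjusted p = 3.07e-05).

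Of the 15 receptor and adaptor genes, 10 were tested, of which 4 fell and 1 rose (median log2 fold change −0.06). Over all genes tested, 18.5% were called lower and 17.6% higher, and the counts of the lists below are to be read beside these shares. Myd88, the adaptor of IL-1 and Toll-like receptors, fell by 0.52 ± 0.09 on the log2 scale, to 19.8 CPM in TGF-β1 cultures, against 28.6 CPM in untreated ones. Irak3, which encodes a restraining member of the IRAK family, fell by 0.68 ± 0.15, to 5.18 CPM in TGF-β1 cultures, against 8.32 CPM in untreated ones. Irak2, a kinase-like transducer of the same family, rose by 0.66 ± 0.08, to 35.9 CPM in TGF-β1 cultures, against 22.8 CPM in untreated ones (edgeR adjusted p = 3.61e-07). Irak1, Irak4, Tollip and Traf6 were not called, with log2 fold changes from −0.06 to 0.11.

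Of 8 genes of inflammasome processing, by which IL-1β and IL-18 are matured, 3 were tested and 2 fell (median log2 fold change −0.61, which is the value of Gsdmd). The third, Aim2, was not called (log2 fold change 0.14 ± 0.07, edgeR adjusted p = 0.142). Aim2 stood at 30.6 CPM in TGF-β1 and 27.7 CPM in untreated cultures. Gsdmd, the pore-forming gasdermin D, fell by 0.61 ± 0.09, to 18.5 CPM in TGF-β1 cultures, against 28.1 CPM in untreated ones. Pycard, the adaptor ASC, fell by 1.06 ± 0.23, to 1.43 CPM in TGF-β1 cultures, against 2.99 CPM in untreated ones. Casp1 had 22 reads over the TGF-β1 libraries and 19 over the untreated ones, and Nlrp3 had 16 over the TGF-β1 libraries and 11 over the untreated ones.

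**Figure D2:**
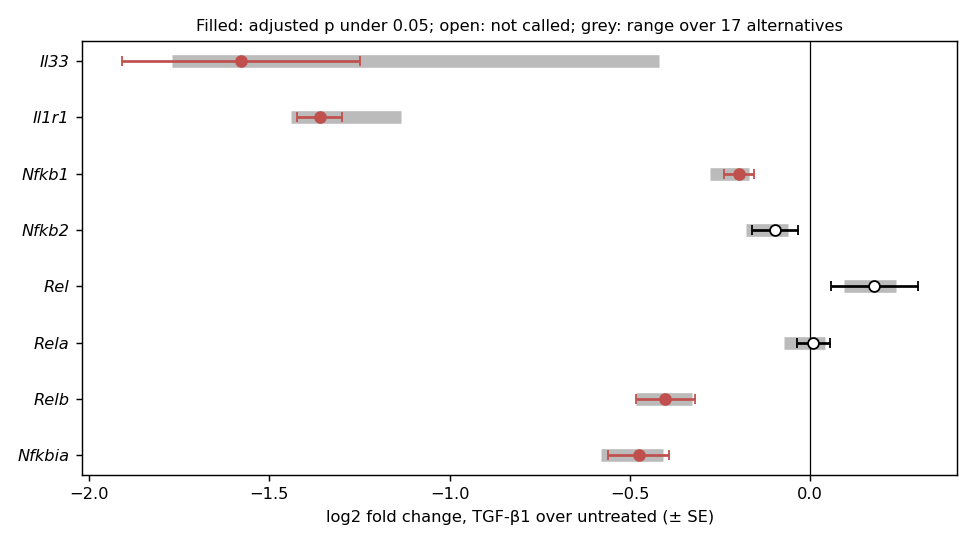
Log2 fold change of TGF-β1 over untreated cultures for the 8 members tested. Points are edgeR estimates with SE, filled where the adjusted p was under 0.05, and grey bars span 17 alternatives. The 5 called members lie below 0 in every alternative, the Il33 bar reaching −0.42 on the log2(FPKM + 1) scale, which understates changes of low genes.

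The Rel family subunits differed in what they did. Rela, which encodes the transactivating subunit p65 (ENSMUSG00000024927, chromosome 19, 5687511 to 5698158, plus strand), stood at 96.9, 86.6, 94.1 and 91.8 CPM in TGF-β1 libraries 1 to 4, against 92.5, 94.1, 94.3 and 86.0 CPM in untreated libraries 1 to 4. The groups covered nearly the same range. The fitted log2 fold change, 0.01 ± 0.05, was not called (edgeR adjusted p = 0.894), and its sign turned with library totals (−0.07) and in 2 of the 8 fits that left out a library.

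Relb, the partner of p52 in the alternative NF-κB pathway (ENSMUSG00000002983, chromosome 7, 19340142 to 19363363, minus strand), stood at 16.3, 14.9, 16.8 and 15.3 CPM in TGF-β1 libraries 1 to 4, against 21.8, 20.2, 18.9 and 22.4 CPM in untreated libraries 1 to 4. The groups did not overlap. Relb fell by 0.40 ± 0.08 on the log2 scale (edgeR adjusted p = 0.000444), to 75.7% of the untreated level, and by 0.39 ± 0.09 without untreated replicate 1.

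Nfkb1, which encodes p105, the precursor of the subunit p50 (ENSMUSG00000028163, chromosome 3, 135290416 to 135397308, minus strand), showed a small fall with little spread. It stood at 74.6, 71.5, 72.6 and 72.8 CPM in TGF-β1 libraries 1 to 4, against 83.5, 82.4, 85.3 and 82.9 CPM in untreated libraries 1 to 4. The SD was 1.27 CPM in TGF-β1 and 1.26 CPM in untreated cultures (n = 4 each), and the groups did not overlap. The log2 fold change of Nfkb1 was −0.20 ± 0.04 (edgeR adjusted p = 0.000641), or 87.2% of the untreated level. Without untreated replicate 1 it was −0.20 ± 0.05. Groups that do not overlap were found in 33.9% of all genes tested.

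Nfkb2, which encodes p100, the precursor of p52 (ENSMUSG00000025225, chromosome 19, 46292759 to 46300824, plus strand), stood at 40.1, 42.3, 36.6 and 37.4 CPM in TGF-β1 libraries 1 to 4, against 45.3, 43.1, 40.0 and 38.8 CPM in untreated libraries 1 to 4. The groups overlapped and the gene was not called (log2 fold change −0.10 ± 0.06, edgeR adjusted p = 0.253), although with library totals it was (−0.18, adjusted p = 0.0399). The count of Nfkb2 carries a further doubt. Within the file's gene range, 28.2% of its exonic bases lie under exons of Psd and 4833438C02Rik on the opposite strand (GENCODE M39), and no source used here says whether strand was used in counting. For the other members this share was at most 8.76%, in Nfkbia.

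Rel, which encodes c-Rel, a subunit best known from lymphocytes (ENSMUSG00000020275, chromosome 11, 23686847 to 23720970, minus strand), stood at 10.9, 8.78, 10.7 and 9.36 CPM in TGF-β1 libraries 1 to 4, against 9.96, 7.16, 8.76 and 9.19 CPM in untreated libraries 1 to 4. The groups overlapped, and the log2 fold change of 0.18 ± 0.12 was not called (edgeR adjusted p = 0.268).

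On the FPKM scale, which divides counts by an annotated gene length, Rela had the largest share among the subunit genes. Its share of the summed FPKM of the 5 subunit genes was 60.1 ± 1.18% in TGF-β1 and 56.9 ± 1.38% in untreated cultures (mean ± SD, n = 4 each). The share of Relb was 8.13 ± 0.29% in TGF-β1 and 10.2 ± 0.94% in untreated cultures, and that of Nfkb1 12.1 ± 0.21% in TGF-β1 and 13.2 ± 0.41% in untreated cultures. Nfkb2 held 17.1 ± 1.40% in TGF-β1 and 17.4 ± 0.81% in untreated cultures, and Rel 2.66 ± 0.20% in TGF-β1 and 2.24 ± 0.31% in untreated cultures. The summed FPKM itself ranged from 47.6 to 51.4 in TGF-β1 and from 49.7 to 53.0 in untreated libraries, so the totals overlapped. These shares are a description of transcripts and were not tested. They depend on the annotated lengths, 12061 bases for Nfkb1 and 3072 bases for Rela. By counts alone these 2 genes were close, at 83.5 CPM for Nfkb1 and 91.7 CPM for Rela in untreated cultures.

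**Figure D3:**
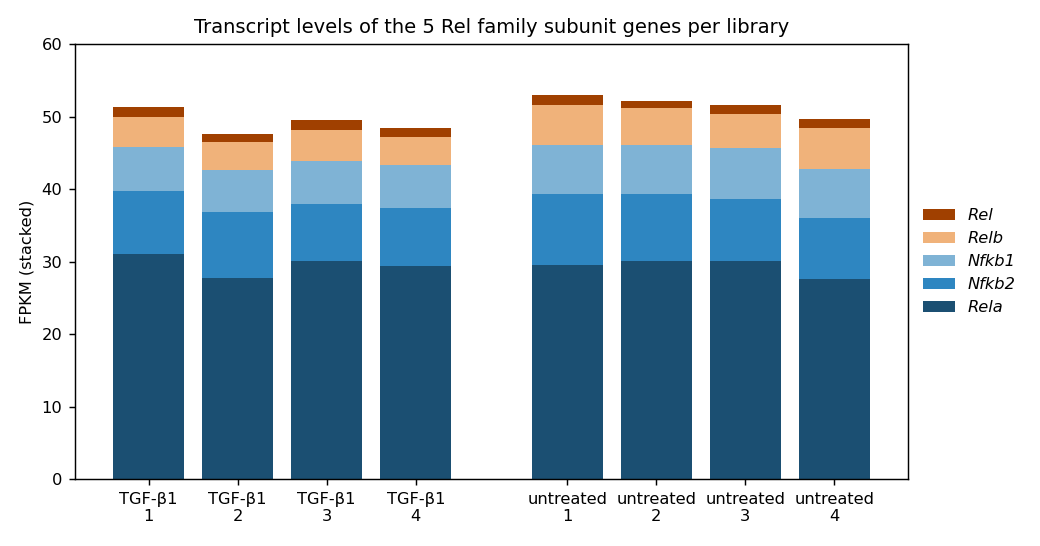
FPKM of the 5 Rel family subunit genes, stacked per library, for 4 TGF-β1 and 4 untreated libraries (linear axis from 0). Rela forms the largest block everywhere, at 27.6 to 31.1 FPKM, and the Relb block is thinner in the TGF-β1 libraries, at 3.77 to 4.24 FPKM against 4.78 to 5.70 FPKM in untreated ones.

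Nfkbia, the inhibitor that NF-κB induces against itself (ENSMUSG00000021025, chromosome 12, 55536195 to 55539432, minus strand), stood at 21.9, 20.1, 23.2 and 28.1 CPM in TGF-β1 libraries 1 to 4, against 31.5, 31.8, 35.1 and 31.8 CPM in untreated libraries 1 to 4. TGF-β1 replicate 4 was the highest of its group and came closest to the untreated range without reaching it. Nfkbia fell by 0.48 ± 0.08 on the log2 scale (edgeR adjusted p = 9.54e-05), to 71.9% of the untreated level, and by 0.50 ± 0.09 without untreated replicate 1. Its FPKM relative to that of Rela was 0.432, 0.442, 0.471 and 0.584 in TGF-β1 libraries 1 to 4, against 0.651, 0.644, 0.710 and 0.705 in untreated libraries 1 to 4, so every treated library lay below every untreated one.

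**Figure D4:**
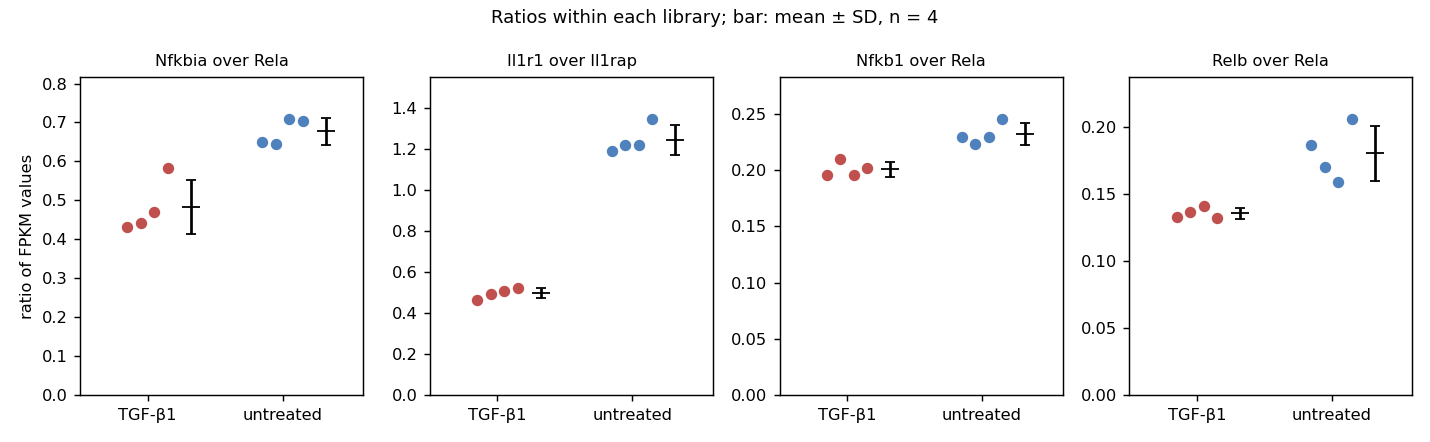
Ratios of FPKM values of gene pairs within each library (unitless, axes from 0), with TGF-β1 and untreated libraries as points and mean ± SD as bars. All 4 ratios are lower in the TGF-β1 libraries, the widest gap being that of Il1r1 over Il1rap, with means of 0.498 in TGF-β1 and 1.24 in untreated cultures.

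Together with the other IκB genes, the Rel family and IκB list had 11 genes, of which 10 were tested, 5 fell and none rose (median log2 fold change −0.15, against 0.0068 over all genes tested). At an unadjusted p under 0.05 none was higher either. Beside Nfkb1, Relb and Nfkbia, the 2 that fell were Bcl3 and Nfkbiz, which encode nuclear IκB proteins that act as cofactors. Bcl3 fell by 0.66 ± 0.19, to 2.41 CPM in TGF-β1 cultures, against 3.80 CPM in untreated ones (edgeR adjusted p = 0.00849). Nfkbiz fell by 0.24 ± 0.09, to 14.8 CPM in TGF-β1 cultures, against 17.5 CPM in untreated ones (edgeR adjusted p = 0.0433), and this call was lost in 9 of 17 alternatives, with an adjusted p of up to 0.144, among them the fits without TGF-β1 replicate 1, 2 or 3 or untreated replicate 1 or 3. Nfkbib, which encodes IκBβ, and Nfkbie, which encodes IκBε, were not called (0.11 ± 0.08 and −0.07 ± 0.13).

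Kinases and ubiquitin regulators upstream of NF-κB were mostly not called: of 21 genes, all tested, 3 rose and 1 fell (median log2 fold change 0.03). Tnip1, which encodes a ubiquitin-binding partner of A20, fell by 0.26 ± 0.06, to 44.7 CPM in TGF-β1 cultures, against 53.5 CPM in untreated ones (edgeR adjusted p = 0.00136). The 3 that rose were Btrc, a ubiquitin ligase subunit that recognises phosphorylated IκB (0.24 ± 0.08), Chuk, the kinase IKKα (0.19 ± 0.06), and Map3k7, the kinase TAK1 (0.10 ± 0.04). None of these 3 calls held with library totals (edgeR adjusted p = 0.132, 0.223 and 0.739), nor without TGF-β1 replicate 3 (0.0649, 0.0538 and 0.0906) or untreated replicate 2 (0.0566, 0.091 and 0.149). The calls of Btrc and Map3k7 were also lost without untreated replicate 3, that of Chuk without TGF-β1 replicate 4, and that of Map3k7 without TGF-β1 replicate 1 or 2 or untreated replicate 1. Tnfaip3, which encodes A20 and is itself a common NF-κB target, stood at 16.4 CPM in TGF-β1 and 15.7 CPM in untreated cultures and was not called (edgeR adjusted p = 0.667). Birc3, another such target, was not called either (edgeR adjusted p = 0.499).

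Genes that IL-1 or tumour necrosis factor are known to induce through NF-κB moved in both directions. Of 26 such genes, 18 were tested, of which 12 fell and 4 rose. Of the 12, 5 passed the count filter only through the untreated libraries (Cxcl1, Ccl5, Ccl20, Ptges and Saa3). Over the 13 that passed it in both groups, 7 fell and 4 rose (median log2 fold change −0.60, against 0.013 over the 12683 genes of the whole table that did so). Ccl2, a monocyte chemokine, fell by 1.35 ± 0.08, to 20.5 ± 3.22 CPM in TGF-β1 cultures, against 52.4 ± 2.88 CPM in untreated ones (SD, n = 4 each; edgeR adjusted p = 8.63e-12). Tnfaip2, a gene named for its induction by tumour necrosis factor, fell by 1.04 ± 0.06, to 21.4 CPM in TGF-β1 cultures, against 44.0 CPM in untreated ones. In the other direction, Ptgs2, the inducible cyclooxygenase, rose by 1.90 ± 0.11, to 21.5 ± 1.68 CPM in TGF-β1 cultures, against 5.80 ± 0.97 CPM in untreated ones (SD, n = 4 each; edgeR adjusted p = 5.16e-12). Lif, a cytokine of the IL-6 family, rose by 1.18 ± 0.07, to 50.4 CPM in TGF-β1 cultures, against 22.3 CPM in untreated ones. The other 2 that rose were Il6 (1.26 ± 0.11) and Csf1 (0.40 ± 0.03). Tnf itself had 6 reads over the TGF-β1 libraries and 5 over the untreated ones.

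**Figure D5:**
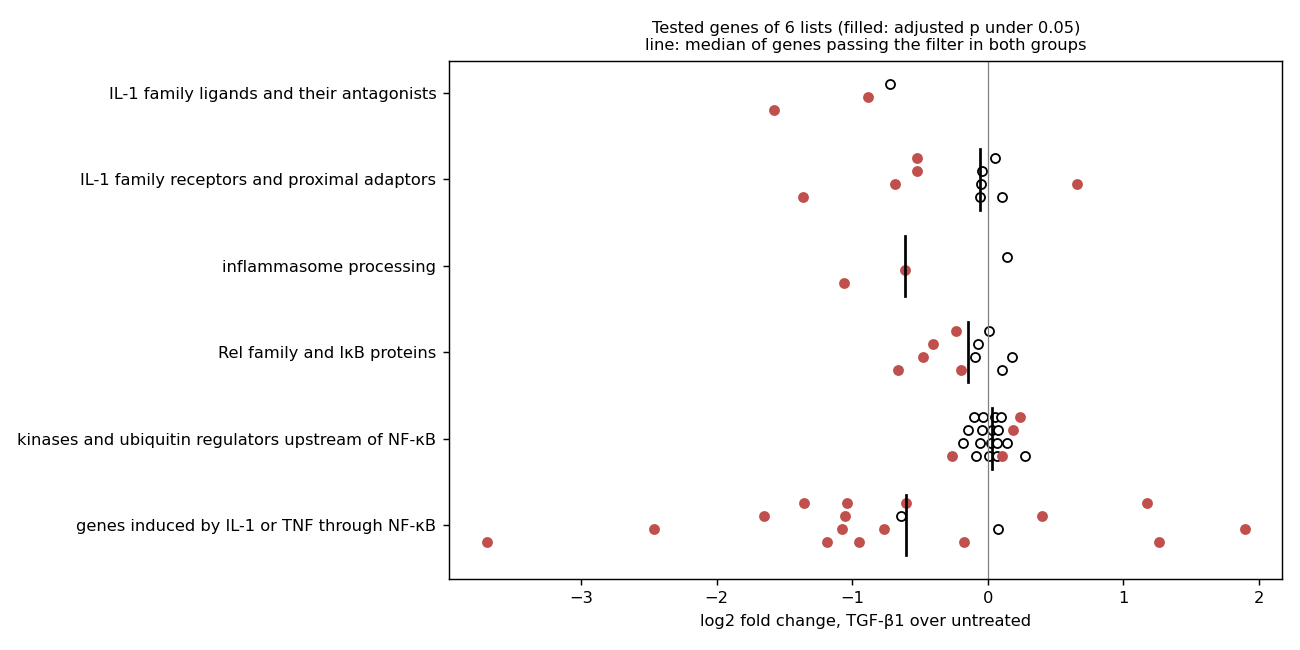
Log2 fold changes (TGF-β1 over untreated) of the tested genes in 6 lists, filled where the edgeR adjusted p was under 0.05, with a line at the median of those that passed the count filter in both groups (none in the ligand list). Upstream regulators lie close to 0 (median 0.03), and the induced genes are spread from −3.69 (Ccl20) to 1.90 (Ptgs2).

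Ordered by FPKM in TGF-β1 cultures, the members ran Rela (29.6 ± 1.40), Nfkbia (14.3 ± 2.08), Nfkb2 (8.39 ± 0.57), Nfkb1 (5.94 ± 0.11), Relb (4.00 ± 0.22), Il1r1 (3.22 ± 0.18), Rel (1.31 ± 0.14), Il33 (0.205 ± 0.070), Il1rn (0.019 ± 0.022) and Il1rl1 (0.010 ± 0.014; mean ± SD, n = 4 each). In untreated cultures the order was the same apart from Il1r1, which at 8.26 ± 0.41 stood between Nfkb2 (8.97 ± 0.63) and Nfkb1 (6.81 ± 0.09). In untreated libraries the ranges of Nfkb2 and Il1r1 overlapped and those of the other neighbours did not. In TGF-β1 libraries only those of Il1rn and Il1rl1 overlapped. The order depends on the annotated gene lengths by which FPKM divides.

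Il33 had the largest estimated log2 fold change among the called members (−1.58 ± 0.33, against −1.36 ± 0.06 for Il1r1). It passed the count filter only through the untreated libraries, so its profile rests on few reads in the treated ones. Over the 8 libraries, the genes of at least 5 CPM whose log2 profile, centred on its own mean, lay nearest to that of Il33 were Lgi2, Fbln1 and Isyna1, out of 10562. Their root mean square distances were 0.209, 0.237 and 0.252 on the log2 scale, against a median of 0.801. Lgi2 stood at 27.1 CPM in TGF-β1 and 75.7 CPM in untreated cultures, and Fbln1, a matrix fibulin, at 25.5 CPM in TGF-β1 and 76.1 CPM in untreated cultures. Isyna1, which encodes inositol phosphate synthase, stood at 28.0 CPM in TGF-β1 and 67.9 CPM in untreated cultures. With 2 groups, this likeness rests mainly on the size of the difference between them.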

How the data were processed

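RNA of 8 libraries was enriched with oligo(dT) beads and primed with random hexamers, per the labels' protocols. The tools CASAVA, HISAT2, Subread and featureCounts were used per the submitters' processing notes, which give no versions. The deposited count table holds raw whole-number counts per gene. The deposited FPKM table is by the authors and is proportional, within each library, to the count over gene length. The notes name GRCm38 and the series design mm39. Coordinates in the files overlapped the same coding gene in GRCm39 (GENCODE M39) for 99.9% of matches and in GRCm38 (RefSeq) for 16.0%, and are read as GRCm39.

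Genes were kept by filterByExpr (minimum count 10, minimum total 15), scaled with TMM factors and tested two-sided with group as the only term (R 4.3.3, edgeR 4.0.16, limma 3.58.1), a step first tested on simulated data. Standard errors were derived from the log2 fold change and its F statistic. Alternatives used DESeq2 1.42.0 and limma on log2(FPKM + 1) and log2(FPKM + 0.1). Replicate pairs differed by more than sampling noise on average, ribosomal RNA genes included. Mean chi-square per gene ran from 3.24 to 11.1 between TGF-β1 libraries and from 2.96 to 3.21 between untreated replicates 2, 3 and 4. It ran from 28.2 to 32.1 for pairs with untreated replicate 1. Ribosomal RNA made up 0.0332% of counts in untreated replicate 1 and at least 1.09% elsewhere. Such genes, though few, can raise this mean, so it does not describe the typical gene. The mean was not taken without them. Intervals cover counting error only. The members and gene lists were chosen with earlier results of these data known. All members are described, and from each list up to 4 called genes with the smallest p. Other list genes were named after their values were seen.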

Additional observations from a re-analysis of the deposited data

Results flagged for a closer look

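In 4 of 54 sets of 4 libraries (27 genes, each in both groups) 1 library stood far from the other 3, where chance sets apart about 1 in 20. Nfkbia was at 35.1 CPM in untreated replicate 3, against 31.5 to 31.8 CPM in the other untreated libraries, and this library lies on the side away from the treated ones. Lif was at 19.7 CPM in untreated replicate 2, against 23.0 to 23.1 CPM in the others. In TGF-β1 replicate 4, Pycard was at 1.25 CPM, against 1.48 to 1.52 CPM in the other treated libraries, and Map3k7 was at 136 CPM, against 140 to 141 CPM. The cause was not tested.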

How the results depend on the processing

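The 5 called members kept their direction and their call in all 17 alternatives. In these Il1r1 ran from −1.44 to −1.14, Relb from −0.48 to −0.33, Nfkbia from −0.58 to −0.41, Nfkb1 from −0.28 to −0.17 and Il33 from −1.77 to −0.42. Leaving out 1 library at a time gave 5 called members each time and 4517 to 4750 called genes. Rela, not called, turned sign with library totals (−0.071) and when 1 library was left out (−0.02 to 0.041, negative without TGF-β1 replicate 1 or untreated replicate 4). With library totals 1301 genes were called higher, and of the upstream regulators 0 were called higher and 3 lower. With limma on either FPKM scale 1 upstream regulator was called higher. Leaving out 1 library gave 0 to 3 higher and 1 to 2 lower, and 0 to 1 inflammasome genes higher. In the ligand list 1 gene was called lower, in place of 2, with the CPM filter, DESeq2, either FPKM scale and the replicate block, 3 with library totals, and 1 to 2 when 1 library was left out. Same-numbered libraries did not deviate together (correlations −0.03 to 0.04, against −0.051 to 0.097 for the other pairs). With so few pairs this cannot show whether the numbers pair the samples. With the replicate number as a block, 4971 genes and 5 members were called. The fit without ribosomal RNA genes was added after seeing the data and also called 5 members. Also added then, the counts over genes that passed the filter in both groups gave 7 induced genes and 0 ligand genes called lower. Depth limits Il1rn and Il1rl1, and the wide error of Il33.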
